A study of Carassius auratus with 6 samples.

Results

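The iron genes described here are the liver copies of hepcidin, the transferrin receptors, the iron importer slc11a2, the iron exporter ferroportin (slc40a1) and ceruloplasmin (cp) in crucian carp (Carassius auratus). They were taken by gene name from the deposited table, allowing suffixes for duplicated copies, and each copy is a row of its own. Of 47544 rows, 15 matched. They comprise 3 copies of hamp1, 4 of tfrc, 2 of tfr2, 2 of slc11a2, 3 of slc40a1 and 1 of cp, while tf, tfr1, hamp and fth1 matched 0 rows under those names. By identifier, all 15 were found in RefSeq's gene table for goldfish (assembly ASM336829v1), which lists tfrc 113100920 as a pseudogene. It gives hamp1 113116788 the symbol hamp, tfrc 113045743 the symbol tfr1a and slc40a1 113116290 the symbol si:ch211-254p10.2.

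The study compared liver RNA of 3 control samples with 3 samples taken after 12 h of hypoxia, all labelled wild-type. The sources used here give no oxygen level, age, sex or pooling of the fish. The labels do not state that each sample is a separate fish, so p-values measure the spread between these samples, which may be technical. The question was which transcripts differ in liver when oxygen is short. Levels are normalized counts, that is, reads divided by a size factor per library and not by gene length, so levels of different genes are not compared, and a copy is called abundant or scarce by its counts alone. A change is hypoxia minus control on the scale of log2(normalized count + 1), with its SE and 95% interval from limma's moderated test, and a gene is said to have risen or fallen at a Benjamini-Hochberg adjusted p under 0.05 over all 41045 genes tested.

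Hepcidin is a peptide made by the liver that binds ferroportin, the exporter through which cells release iron, and causes its breakdown. Iron in plasma travels on transferrin after oxidation by ferroxidases such as ceruloplasmin, and enters cells through transferrin receptor 1 and the importer slc11a2, while transferrin receptor 2 acts in hepatocytes as a sensor of loaded transferrin. In mammals low oxygen is known to lower hepcidin, and the genes for transferrin receptor 1 and ceruloplasmin are known targets of hypoxia-inducible factor.

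None of the iron gene copies rose or fell. By limma 0 of 15 copies were called, where 2.24% of all genes tested were. All 15 passed the filter on low values. At an unadjusted p under 0.05 there was 1 copy by limma, against 18.6% of all genes, and edgeR and DESeq2 on recovered reads called 0 copies each, where edgeR called 1.92% and DESeq2 8.09% of all genes they tested. At an unadjusted p under 0.05 each had 3 copies, against 18.4% of all genes by edgeR and 17.9% by DESeq2. With the replicate number as a block, limma called 0 copies and 1.01% of all genes. The authors' deposited table lists 0 of the 15 with an adjusted p under 0.05, against 5.49% of all its rows. Changes ran from -2.29 to 1.21 with a median of 0.09, beside a median of 0.00 over all genes tested. Groups did not overlap in 4 of 15 copies, 3 with hypoxia above and 1 with hypoxia below, against 24.6% of all genes tested (12.4% above and 12.2% below). In 1 of the 3, slc40a1 113116290, control replicate 1 and hypoxia replicate 1 held 1 read each and were parted only by the size factor. The copy with hypoxia below, cp 113039725, had overlapping groups when taken as a share of the reads of each library. Libraries held 15734847 to 22782649 recovered reads.

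**Figure D1:**
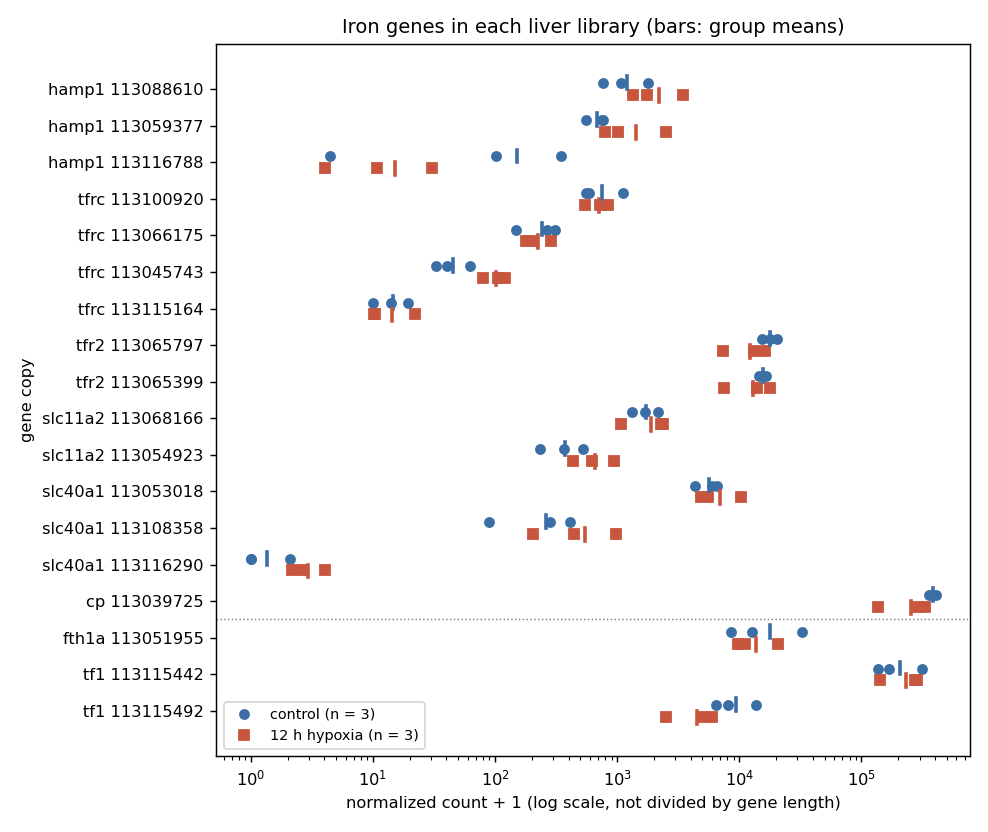
Normalized count plus 1 on a log axis for each iron gene copy, with 1 point per library, circles for the 3 control samples, squares for the 3 hypoxia samples and a short bar at each group mean. Rows under the dotted line are fth1a and tf1, which were added after the table was seen. In most rows circles and squares overlap, and in tfrc 113045743 all 3 squares lie to the right of the circles.

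Both abundant hepcidin copies had higher means after hypoxia, and the scarce copy had a lower mean, with none of these differences past the test. The most abundant copy, hamp1 113088610, was at 765, 1787 and 1067 in controls, against 1743, 1342 and 3488 after hypoxia. Groups overlapped, since control replicate 2 was above hypoxia replicates 1 and 2, and the change was 0.83 ± 0.42 (95% interval -0.13 to 1.78, limma adjusted p = 0.33). It was 0.43 without hypoxia replicate 3 and 0.54 without control replicate 1. The copy hamp1 113059377 was at 551, 756 and 763 in controls, against 1008, 795 and 2497 after hypoxia. Every hypoxia library was above every control, by a narrow margin in replicate 2, and hypoxia replicate 3 was the highest. Its change was 0.88 ± 0.41 (interval -0.03 to 1.80, limma adjusted p = 0.28), and it was 0.39 without hypoxia replicate 3.

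The scarce copy hamp1 113116788, the one that carries the symbol hamp in the reference, lies beside usf2l there. It was at 100, 3.47 and 347 in controls, against 29.5, 3.06 and 9.76 after hypoxia. Control replicate 2 was as low as the hypoxia libraries, whereas the other two controls were above all of them. The change was -2.29 ± 1.42 (interval -5.50 to 0.91, limma adjusted p = 0.42). Without control replicate 2 it was -4.09 and passed the test (adjusted p = 0.035), in a fit in which 5.76% of all genes passed, and over all alternatives the adjusted p ran from 0.035 to 0.80. It was -0.95 without control replicate 3, -1.57 without hypoxia replicate 2 and -3.47 by edgeR. Summed over the 3 copies, hepcidin was at 1415, 2546 and 2177 in controls, against 2780, 2140 and 5995 after hypoxia, with overlapping groups.

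Transferrin receptor 1 takes up iron-loaded transferrin from plasma, and in zebrafish tfr1a is needed by developing red cells. The copy with the symbol tfr1a in the reference, tfrc 113045743, was at 39.6, 61.3 and 32.0 in controls, against 105, 79.5 and 119 after hypoxia. All 3 hypoxia libraries were above all 3 controls, with means of 44.3 ± 15.2 and 101 ± 19.9 (SD, n = 3 each). This was the copy with the smallest p of the 15, at 1.21 ± 0.35 (interval 0.42 to 1.99, limma adjusted p = 0.12). The authors' deposited table lists it at 1.19 with an adjusted p of 0.0607. Without control replicate 2, the highest control, the change was 1.46 and passed the test (adjusted p = 0.044), and over all alternatives the adjusted p ran from 0.044 to 0.31.

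The erythrocyte marker list, of which 8 of 16 symbols had rows, summed to 3890, 6524 and 1448 in controls, against 2488, 5033 and 15334 after hypoxia. Its part in the level of tfrc 113045743 was not tested. The marker groups overlapped, and control replicate 2 was the highest control in both. The rows named hba, for alpha globin, summed to 1362, 2291 and 405 in controls, against 315, 1131 and 4345 after hypoxia. The largest part of the list was hbb, at 1545, 3395 and 424 against 1408, 3017 and 9839. Groups also overlapped for alas2, slc4a1, rhag and hbaa1. In contrast, epb41 (545, 547 and 390 against 621, 684 and 707) and the scarce tmod4 had every hypoxia library above every control. Among all genes tested, 12.4% had every hypoxia library above every control. The transcription factors gata1 and klf1, which define red cell precursors, had no row under those names.

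The other tfrc copies had estimated changes near 0, with wide intervals. The pseudogene copy tfrc 113100920 was at 585, 1109 and 556 in controls, against 844, 547 and 723 after hypoxia, a change of -0.04 ± 0.32 (interval -0.76 to 0.68, limma adjusted p = 0.97). The copy tfrc 113066175 was at 307, 148 and 266 against 198, 288 and 179, a change of -0.08 ± 0.33 (interval -0.83 to 0.67). The scarce copy tfrc 113115164 was at 13.2, 18.5 and 9.01 against 9.45, 9.17 and 21.2, a change of -0.08 ± 0.56 (limma adjusted p = 0.96). Libraries of both groups were interleaved in all of these, and each of the 3 changed sign when reads were scaled to library totals. Over the 4 copies together, tfrc was at 1048 ± 253 in controls and 1041 ± 116 after hypoxia (SD, n = 3 each). Nearly identical copies may share reads, and how the counting divided them is not known, so the level of a single copy is uncertain.

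The receptor tfr2 was at similar levels in both copies and was lowest in hypoxia replicate 2. Copy 113065797 was at 18010, 15479 and 20484 in controls, against 13227, 7302 and 16206 after hypoxia. Hypoxia replicate 3 lay within the range of the controls and the other two lay below it, a change of -0.62 ± 0.44 (interval -1.62 to 0.37, limma adjusted p = 0.48). Copy 113065399 was at 14416, 15679 and 16613 against 14011, 7474 and 17705, a change of -0.34 ± 0.44 (interval -1.33 to 0.65). Without hypoxia replicate 2 the changes were -0.29 and 0.02. The hepatocyte marker list, with rows for 12 of 14 symbols, was also lowest in that library, at 1016092 against 1318972 to 2046086 in the other 5. The summed normalized count of all genes was lowest there too, at 1.33e+07 against 1.68e+07 to 2.03e+07 in the other 5. A low sum of the list there therefore need not mean a smaller share of the reads. The sum of the hepatocyte list rested mainly on fga, fgb and c3, which are also in the acute phase list. Symbols lowest in that library were fgb, c3, apob, apoa1, f2, fabp10a and serpina1. Those for fga, rbp4a, ahsg and ttr were not, and the scarce apoh was highest there. The part of the hepatocyte list in the level of tfr2 was not tested. In bulk tissue, fewer cells of a type and less RNA per cell cannot be told apart.

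The divalent metal importer slc11a2, known as DMT1, brings iron across the cell and endosomal membrane. Copy 113068166 was at 1311, 2144 and 1699 in controls, against 2277, 1070 and 2383 in the hypoxia libraries. The lowest and the highest values were both hypoxia libraries, and the change was 0.09 ± 0.36 (interval -0.72 to 0.91, limma adjusted p = 0.92). Copy 113054923 was at 367, 231 and 520 in controls, against 618, 943 and 431 after hypoxia. Here 2 hypoxia libraries were above all controls and hypoxia replicate 3 was not, for a change of 0.83 ± 0.37 (interval -0.01 to 1.68, limma adjusted p = 0.27). Without control replicate 2 this change was 0.53, and without hypoxia replicate 2 it was 0.54.

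Ferroportin, the exporter that hepcidin removes from the membrane, had an abundant copy whose mean was slightly higher after hypoxia and a scarcer copy that varied widely, neither past the test. Copy slc40a1 113053018 was at 4367, 6556 and 6003 in controls, against 5587, 4879 and 10433 after hypoxia. Only hypoxia replicate 3 stood above the controls, and the change was 0.24 ± 0.38 (interval -0.62 to 1.10, limma adjusted p = 0.77). Copy slc40a1 113108358 was at 412, 87.8 and 280 in controls, against 445, 971 and 203 after hypoxia. Its lowest library was control replicate 2 and its highest hypoxia replicate 2, for a change of 1.03 ± 0.65 (interval -0.44 to 2.51, limma adjusted p = 0.43). Without control replicate 2 that change was 0.39, and without hypoxia replicate 2 it was 0.47. The remaining copy, 113116290, had 1 read over the controls and 7 over the hypoxia libraries, a ratio of 5.74 (exact 95% counting interval 0.737 to 259), so no difference was detectable at this depth.

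Ceruloplasmin, the copper-containing plasma ferroxidase, had a lower mean after hypoxia, which did not pass the test. Its only copy, cp 113039725 took 1.77% to 2.44% of the reads of a control library and 1.02% to 1.78% of those of a hypoxia library. It was at 380788, 359580 and 410001 in controls, against 292645, 135972 and 330028 after hypoxia. In normalized counts all hypoxia libraries were below all controls, with hypoxia replicate 2 far below the other two. The means were 383456 ± 25316 and 252882 ± 102958 (SD, n = 3 each). As shares of reads the groups overlapped slightly, at 1.773% in the lowest control library and 1.780% in the highest hypoxia library. The change was -0.70 ± 1.25 (interval -3.53 to 2.14, limma adjusted p = 0.80). That SE follows limma's mean-variance trend, and the 6 values alone give an SE of 0.40. Without hypoxia replicate 2 the change was -0.30. In that library the hepatocyte marker list was lowest too, and so was the summed normalized count of all genes. The part of the hepatocyte list in the level of cp was not tested.

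**Figure D2:**
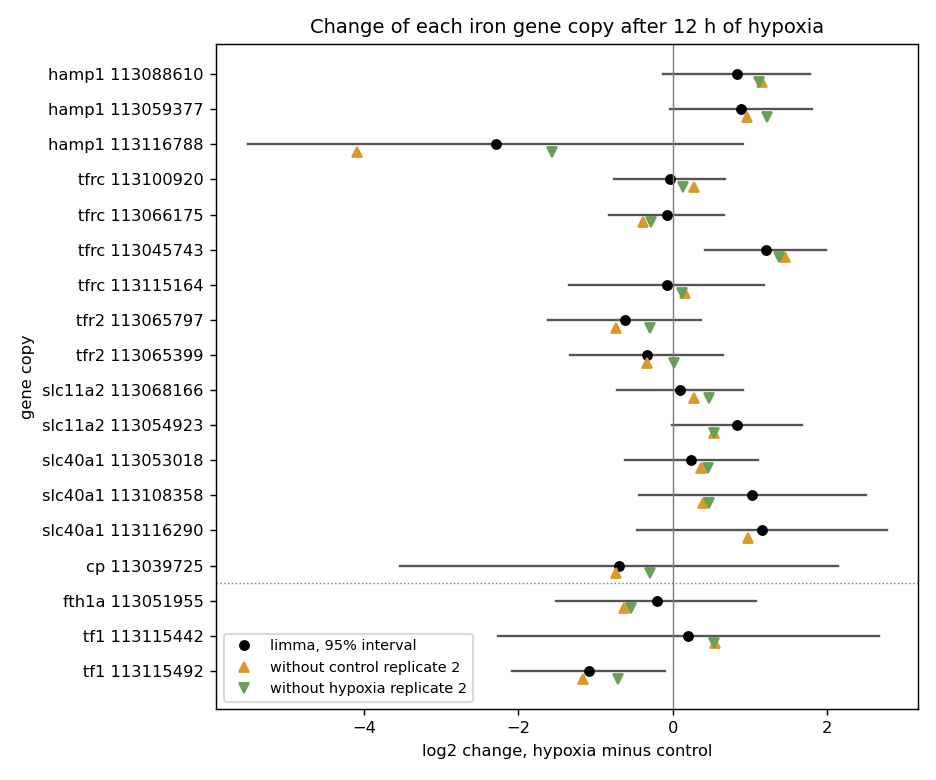
Log2 change, hypoxia minus control, of each iron gene copy, with the limma estimate as a circle and its 95% interval as a line (n = 3 per group). Triangles give the estimate without control replicate 2 (pointing up) or without hypoxia replicate 2 (pointing down). The interval of tfrc 113045743, 0.42 to 1.99, lies above 0, and hamp1 113116788 has the widest interval of the 15.

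Transferrin and ferritin heavy chain had rows under other names, which were chosen after their values were seen. The row with the reference symbol fth1a, 113051955, has no gene name in the deposited table. Ferritin stores iron inside cells, and fth1a was at 12744, 8495 and 32356 in controls, against 11190, 20614 and 9719 after hypoxia. The highest value was a control and the groups overlapped (-0.21 ± 0.57, interval -1.51 to 1.08, limma adjusted p = 0.87). The serotransferrin row tf1 113115442, with the reference symbol tfa, was at 168605, 314847 and 137444 against 285774, 142323 and 272906, a change of 0.20 ± 1.09 (limma adjusted p = 0.94). As for cp, that SE follows limma's mean-variance trend, and the values of this row alone give an SE of 0.48. Another row named tf1, 113115492, was at 13742, 8165 and 6424 in controls, against 5041, 2494 and 5944 after hypoxia. All its hypoxia libraries were below all controls, as in 12.2% of all genes tested, but the change was not past the test (-1.09 ± 0.44, limma adjusted p = 0.23).

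Copies of the same gene were often high and low in different libraries. For slc11a2 and slc40a1 the scarcer copy was lowest in control replicate 2 and highest in hypoxia replicate 2, whereas the abundant copy was higher in the first of these libraries than in the second. The log2 ratio of slc11a2 113068166 to 113054923 was 1.83, 3.21 and 1.70 in controls, against 1.88, 0.18 and 2.46 after hypoxia. The same ratio for slc40a1 113053018 to 113108358 was 3.40, 6.21 and 4.42 in controls, against 3.65, 2.33 and 5.67 after hypoxia. Ratios of tfrc 113100920 to 113066175 were 0.93, 2.90 and 1.06 against 2.08, 0.92 and 2.01. In contrast, both tfr2 copies kept a ratio between -0.13 and 0.32 in every library, and the 2 abundant hamp1 copies between 0.47 and 1.24.

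An exact two-sided permutation test of each ratio between groups covered 5 pairs of copies, and 3 against 3 allows no p under 0.1. The smallest exact permutation p was that of tfr2 (difference -0.28, p = 0.1, or 0.5 adjusted over the 5 pairs by the Benjamini-Hochberg method). The others were 0.6 for slc11a2 and slc40a1, 0.9 for hamp1 and 1 for tfrc by the same exact test. No pair of copies passed 0.05 by this test, which cannot reach it with 3 against 3.

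The macrophage marker list had its extremes in the same libraries as the scarcer slc11a2 and slc40a1 copies, a comparison made after the values were seen. With rows for 9 of 14 symbols, the list summed to 5474, 1476 and 7769 in controls, against 3909, 9468 and 3612 after hypoxia. Control replicate 2 was lowest and hypoxia replicate 2 highest, as in slc11a2 113054923 and slc40a1 113108358. Control replicate 2 was also the lowest library of tfrc 113066175 and fth1a, but their highest were control replicate 1 and control replicate 3, respectively. The macrophage genes mpeg1 (287 in control replicate 2, 1623 in hypoxia replicate 2) and csf1r (32.4 and 440) had these libraries at the same ends, as did marco, cybb and mrc1. The other symbols differed at 1 end. Of these, lyz was lowest in control replicate 3 and timd4 in hypoxia replicate 3, while cd163 was highest in control replicate 1 and ncf1 in control replicate 3. In control replicate 3 the sum rested mainly on ncf1, at 5521 of 7769. Rows for cd68, vsig4 and the c1q chains were not found, and no row of the list was at 0 in all libraries. These extremes were not particular to macrophage markers. The biliary marker list (9950 in control replicate 2, 19996 in hypoxia replicate 2) and the neutrophil marker list (1038 and 7299) had them too. Lists for exocrine pancreas and for endothelium with stellate cells were also highest in hypoxia replicate 2, but lowest in other libraries.

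As a measure of likeness, the Euclidean distance between mean-centred log2 values over the 6 libraries was taken to the summed hepatocyte and macrophage lists. Distances to the biliary and neutrophil lists were not taken. Copy slc11a2 113068166 was at 0.31 from the hepatocyte list and 2.98 from the macrophage list, whereas slc11a2 113054923 was at 2.23 and 1.25. Copy slc40a1 113053018 was at 0.85 and 2.70, and slc40a1 113108358 at 3.35 and 1.36. The tfrc pseudogene copy 113100920 was at 0.52 and 3.02, and tfrc 113066175 at 1.84 and 1.36. Both tfr2 copies, cp and the 2 abundant hamp1 copies were nearer to the hepatocyte list, and fth1a was nearer to the macrophage list (2.45 and 1.21). Not every scarce copy was nearer to the macrophage list, since tfrc 113045743 was at 1.47 and 3.05 and tfrc 113115164 at 0.95 and 3.06. The scarce hamp1 113116788 was far from both, at 6.0 and 5.25, and was lowest in hypoxia replicate 2, where the macrophage list was highest. The distance is not scaled for how much a list varies. Centred values of the hepatocyte list ran only from -0.626 to 0.384, and those of the macrophage list from -1.61 to 1.07. A copy that varies little is therefore nearer to the hepatocyte list whatever its pattern, so being nearer to it does not show a like pattern. These distances describe 6 libraries, and the part of cell composition in the level of any copy was not tested.

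**Figure D3:**
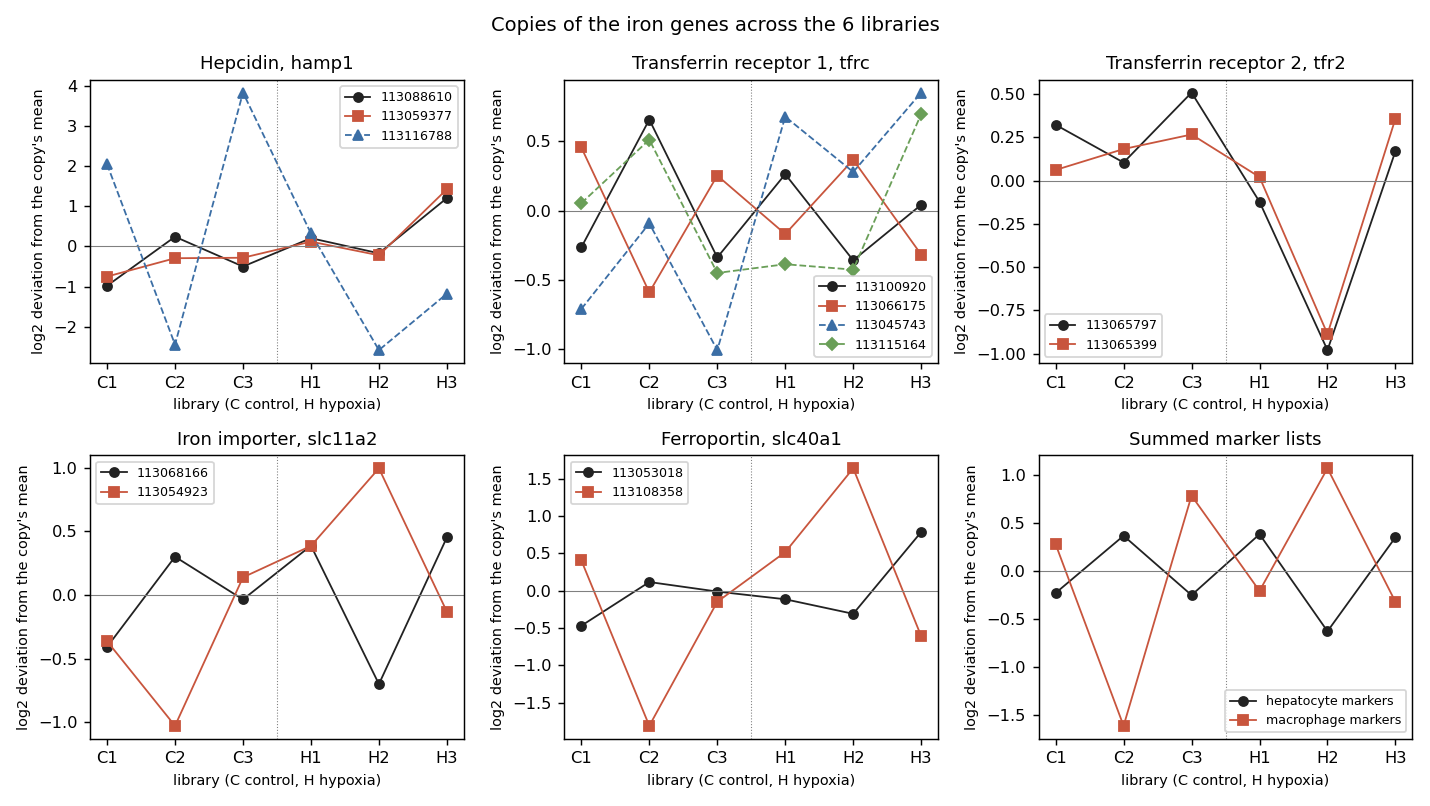
Log2 deviation of each copy from its own mean across the 6 libraries (C1 to C3 control, H1 to H3 hypoxia), with 1 panel per gene and the summed hepatocyte and macrophage marker lists in the last panel. In slc11a2 and slc40a1 the scarcer copy has its minimum in C2 and its maximum in H2, as the macrophage list does, and both tfr2 copies have their minimum in H2, as the hepatocyte list does. The biliary and neutrophil lists, not drawn, also have their minimum in C2 and maximum in H2. The summed normalized count of all genes was lowest in H2 too.

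The 5 named genes outside the iron set with a pattern most like that of hamp1 113088610 were LAGE3 113054583, AANAT 113050725, Klf15 113041547, tarsl2 113061358 and letm1 113057065. Their distances were 0.34, 0.44, 0.46, 0.51 and 0.53 over the 6 libraries, among 26981 genes compared. The sister copy hamp1 113059377 was at 0.67, and the scarce hamp1 113116788 at 6.84. In all 5, as in hamp1 113088610, control replicate 2 was the highest control and hypoxia replicate 3 the highest library. This likeness follows from choosing them by distance over the same libraries.

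Around hepcidin, copies of intracellular inhibitors of the bone morphogenetic protein (BMP) pathway rose, 2 of 3 tested for SMAD7 and 1 of 5 for SMAD6. BMP signalling through SMAD proteins drives hepcidin transcription in liver, and SMAD6 and SMAD7 are its inhibitors. Of 109 rows in the list of hepcidin regulators 98 were tested, and 4 rose and 0 fell, which is 4.08% against 2.24% of all genes. The median change was 0.25, beside 0.00 over all genes. This list and those below were chosen with earlier results of these data known, so their shares are descriptive only. Smad7 113039053 was at 47.3, 30.1 and 40.0 in controls, against 158, 220 and 228 after hypoxia, a rise of 2.34 ± 0.30 (limma adjusted p = 0.0054) that passed the test without each library in turn. SMAD7 113064453 went from 79.1, 156 and 91.1 to 431, 403 and 423, a rise of 2.0 ± 0.29 (limma adjusted p = 0.01). Both copies were above every control in every hypoxia library.

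SMAD6 113061449 was at 28.6, 46.2 and 15.0 in controls, against 138, 135 and 168 after hypoxia (2.38 ± 0.41, limma adjusted p = 0.023). The type 2 BMP receptor copy Bmpr2 113093312 rose from 49.5, 43.9 and 29.0 to 98.1, 184 and 146 (1.77 ± 0.35, limma adjusted p = 0.04), while 3 other copies, between -0.11 and 0.63, did not pass. Left-out libraries ended some of these calls. SMAD7 113064453 lost its call without hypoxia replicate 1 or 3 (adjusted p up to 0.065), SMAD6 without any hypoxia library or control replicate 1 (up to 0.11), and Bmpr2 without any single library except control replicate 2 (up to 0.15). The symbols bmp6, hjv and rgmc had no row, and hemojuvelin was matched as hfe2. The 94 rows of the list that did not pass included ID1 (0.365 and 0.272), id3 (0.226, 0.313 and 0.272) and atoh8 (0.309). Whether BMP signalling to hepcidin changed was not tested.

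Among genes of cellular iron handling, 1 rose and 0 fell of 47 tested, which is 2.13%, near the 2.24% of all genes, with a median of 0.11. The one that rose was fbxl5 113065753, whose product is the iron- and oxygen-sensing part of the ubiquitin ligase that removes iron regulatory proteins. It was at 192, 201 and 135 in controls, against 539, 520 and 374 after hypoxia, with no overlap. Its rise was 1.44 ± 0.26 (limma adjusted p = 0.029), and it passed the test in 1 of 6 fits that left out a library, the one without control replicate 2, with adjusted p up to 0.14 in the others. The other fbxl5 copy, 113041349, had an estimate of the opposite sign, -0.80, which did not pass. The list had 19 of 25 symbols with rows, and ferritin light chain (ftl) was among those without.

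In the list of iron-sulphur cluster and mitochondrial iron genes, 49 rows held 46 tested genes, of which 4 fell, 0 rose and 42 did not pass the test. The 4 are 8.70%, against 2.24% of all genes, a descriptive share since the list was chosen with earlier results known. The median change was -0.39, with 37 estimates below 0 and 9 above, the highest 0.27. The 49 rows summed to 6583, 6912 and 8293 in controls, against 4913, 3858 and 5102 after hypoxia, with every hypoxia library below every control. Among all single genes tested 12.2% had hypoxia below without overlap, whereas this is a sum over many rows. The row named ISCU, after the scaffold on which clusters are built, has no match in the reference table. It went from 143, 118 and 198 to 35.4, 30.6 and 39.1, a change of -2.07 ± 0.31 (limma adjusted p = 0.011), while 5 other rows of that name, between -1.68 and 0.12, did not pass. Both fdxr copies, which encode the reductase that passes electrons to ferredoxin, fell, 113112143 by -1.72 ± 0.31 and 113111369 by -1.56 ± 0.33 (limma adjusted p = 0.026 and 0.047). The cluster assembly gene isca1 113094261 was at 120, 99.4 and 109 in controls, against 37.8, 48.9 and 38.2 after hypoxia (-1.38 ± 0.29, limma adjusted p = 0.047), and its other copy, at -0.40, did not pass. Without at least 1 library each of these 4 lost its call, with adjusted p up to 0.06, 0.12, 0.19 and 0.17. ISCU lost it without control replicate 3 or hypoxia replicate 1, fdxr 113112143 without control replicate 3 or any hypoxia library, and fdxr 113111369 and isca1 without any library except control replicate 2. DESeq2 called all 4, and edgeR all but fdxr 113111369 (edgeR adjusted p = 0.055). With the replicate number as a block only ISCU was called. The fdxr copies were each at 0.051 and isca1 at 0.15 (limma adjusted p). With either other pseudocount isca1 was at 0.051 (limma adjusted p).

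Hepcidin is also an acute phase gene, so the acute phase list was set beside it. Of 80 rows 72 were tested, and 7 rose and 1 fell, which is 11.1% against 2.24% of all genes, with a median of -0.02. The calls came from few genes, with 3 copies of cebpd, 2 of hpx and 2 of il1b that rose and 1 of a2m that fell. The list was chosen with earlier results of these data known, so this share describes its rows and is no test of the acute phase. The plasma proteins SAA1 (-1.64) and HP (-0.42) did not pass the test, nor did any tested row of fga, fgb, fgg or c3. All 3 copies of CEBPD, a transcription factor of the acute phase response, rose, by 4.18 ± 0.27 (113042600), 2.91 ± 0.30 (113096057) and 2.83 ± 0.37 (113092835). The reference lists copy 113096057 as a pseudogene. The haem-binding protein hpx 113108436 went from 34.1, 401 and 17.0 to 21643, 10936 and 18819 (8.02 ± 0.95, limma adjusted p = 0.0035). Of its other copies, 1 rose and 1, at -1.07, did not pass. The 3 CEBPD copies and hpx 113108436 passed the test in each of the 6 fits that left out a library. The neutrophil marker list, with rows for 7 of 9 symbols, summed to 2673, 1038 and 2298 in controls, against 5555, 7299 and 6654 after hypoxia. All hypoxia libraries were above all controls in that sum. In each hypoxia library its largest part was mmp9, at 807, 573 and 1367 in controls against 2918, 3700 and 4170 after hypoxia. Groups did not overlap for mmp9, cxcr1, csf3r and ncf4, but overlapped for lyz, mpo and cxcr2, and lyz is also in the macrophage list. Among all single genes tested, 12.4% had hypoxia above without overlap, whereas some of these symbols are sums over several rows. The part of the neutrophil list in the acute phase genes was not tested.

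**Figure D4:**
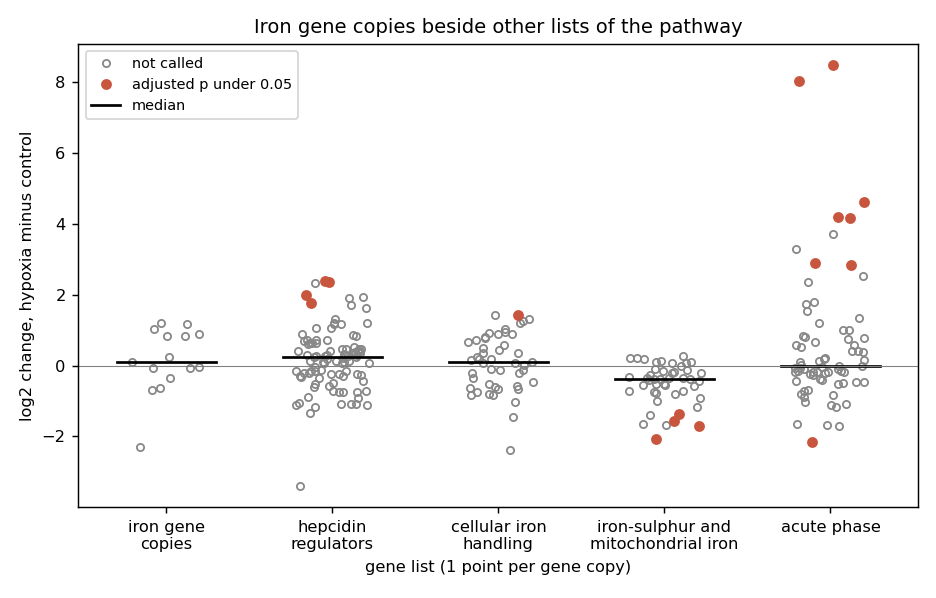
Log2 change, hypoxia minus control, of the 15 iron gene copies and of the tested genes of 4 lists, with 1 point per gene copy, filled where the limma adjusted p was under 0.05, and a line at each median. The iron copies hold 0 filled points, the hepcidin regulators 4 above 0 and the iron-sulphur list 4 below 0.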

How the data were processed

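Liver RNA was sequenced in 3 control and 3 hypoxia libraries. The submitters' processing notes name TopHat2 2.1.1 and Bowtie2 2.2.8 for alignment; counter, genome build and annotation: not given in the sources used here. The deposited signal of each library is a whole multiple of a single step (100% of values within 0.01 of a read), so it is a read count divided by a size factor and not FPKM, although the deposited table is named so. Size factors were 0.846 to 1.31. The log2 fold change, p-value and adjusted p-value per gene in the authors' deposited table come from a test not stated.

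Genes with a mean of at least 1 were tested with limma 3.58.1 (R 4.3.3, mean-variance trend, no covariate) on log2 values with a pseudocount of 1. Recovered whole reads gave edgeR 4.0.16 and DESeq2 1.42.0 fits as alternatives, with other pseudocounts, filters, scalings, a replicate block and each library left out. The scripts were tested on simulated data.

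Every copy with a mean of at least 10 is described, with up to 4 called genes (smallest p) per pathway list, and 5 genes of most like pattern. Members and lists were chosen with earlier results of these data known. Counting intervals cover counting error only. No sequence of these genes was used here.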

Additional observations from a re-analysis of the deposited data

How the results depend on the processing

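The count of 0 iron gene copies called held under the other pseudocounts, filters and scalings, edgeR, DESeq2 and the replicate block, and was 0 to 2 when 1 library was left out, the 2 being hamp1 113116788 and tfrc 113045743 without control replicate 2. Over all genes 921 were called (750 higher, 171 lower), 322 to 2360 with 1 library left out (2360 without control replicate 2, 1425 higher and 935 lower) and 2733 by DESeq2 (1671 higher, 1062 lower). Other iron pathway genes numbered 9 called, 18 by DESeq2 and 1 to 15 with 1 library left out. With the replicate number as a block the counts were 415 over all genes and 3 for the other iron pathway genes. Those 3 were Smad7 113039053, SMAD7 113064453 and the ISCU row called in the main fit. Same-numbered libraries had correlations of deviations of -0.0697, -0.19 and -0.0284, beside -0.188 to 0.214 for differently numbered ones. No pairing by number was visible, but with 3 libraries per group this cannot exclude shared handling of same-numbered samples.

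Of the 15 copies, 9 kept their direction under every alternative that could be run. Scaled to library totals, an alternative chosen after seeing the data, tfrc 113100920, 113066175 and 113115164 were at 0.05, 0.01 and 0.00. With 1 library left out they ran from -0.21 to 0.28, -0.39 to 0.13 and -0.45 to 0.16, tfr2 113065399 from -0.60 to 0.02, slc11a2 113068166 from -0.11 to 0.47, slc40a1 113053018 from -0.09 to 0.46, fth1a from -0.63 to 0.33 and tf1 113115442 from -0.05 to 0.55. The cause of these shifts was not tested. The filter at a mean of 10 removes slc40a1 113116290. Depth limits that copy most, with 8 reads in all 6 libraries.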
